A study of Mus musculus with 4 samples.

Results

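The genes described here are 36 genes of mitosis and cytokinesis, chosen by name from the 14159 genes of a table of transcript levels. All 36 were in the table, and all 36 passed the filter on low values (1 FPKM or more in 2 or more libraries), which kept 12046 genes. RNA sequencing was done on primary squamous cell carcinomas of mice, tumours of squamous epithelium that were taken without culture, with 2 control libraries and 2 libraries from tumours labelled KDM4A knockout. The labels say that KDM4A was removed by an inducible system, and they write this in the treatment of the control samples as well. They do not give the strain, the age of the mice, the inducing agent, the Cre driver or the cells it acts in, nor whether the libraries came from separate animals, so p-values reflect the variation among these 4 libraries, possibly technical, and nothing more. The names of the control columns are identical; here the letters a and b stand for the controls and the numbers 1 and 2 for the knockouts.

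Levels are in FPKM, which divide the fragments of a gene by its transcript length and by the library's mapped fragments, so that genes can be compared. Differences are knockout minus control on a log2(FPKM + 1) scale, where low genes appear to change less than they do, with limma's moderated standard error (SE) and its Benjamini-Hochberg adjusted p over the 12046 genes. A gene is said to have risen or fallen where that p was under 0.05. The depth of the libraries is unknown, and no counting interval is given.

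Kdm4a, which encodes a demethylase of histone H3, fell from 29.6 and 27.7 FPKM among controls to 14.9 and 14.7 among knockouts (-0.91 on the log2 scale, SE 0.07, limma adjusted p = 0.000774). The knockout libraries thus still held 0.517 times the control level. In these bulk samples, fewer cells of a type and less RNA per cell cannot be told apart. The marker counts that follow stand beside 30.1% of all tested genes that rose and 33.8% that fell. Squamous epithelium markers summed to 9939 and 10099 FPKM for controls against 5661 and 5514 for knockouts (10 of 16 fell and 0 rose, median log2 fold change -0.93). T cell markers summed to 24.5 and 19.6 against 54 and 56.7 FPKM (12 of 12 tested rose), and B and plasma cell markers to 28.5 and 36.3 against 55.3 and 111 (7 of 10 rose, 0 fell). Macrophage and monocyte markers summed to 882 and 846 against 1125 and 1333 FPKM (7 of 13 rose, 1 fell), and fibroblast markers to 32.5 and 26.8 against 32.9 and 39.2 (1 of 8 tested rose). Endothelial markers summed to 19.1 and 19.4 against 25.2 and 29.1 FPKM (2 of 3 tested rose, 1 fell). Salivary gland markers summed to 6.79 and 37.1 against 4853 and 1079 FPKM (6 of 6 tested rose). The salivary genes Dcpp3 and Aqp5 were listed at 0 in control library a, and no other marker of these lists was at 0 in any library. The part that these cell types have in the levels of the mitosis genes was not tested.

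Mitosis separates the copied chromosomes and cytokinesis then divides the cell. Cyclin-dependent kinase 1, with cyclins A and B, starts mitosis; kinetochores tie chromosomes to spindle microtubules, the spindle checkpoint holds back the anaphase-promoting complex until all are attached, and that complex then marks cyclin B and securin for destruction. Many of these genes peak in G2 and mitosis, through promoters that carry a cell cycle homology region (CHR) and CCAAT boxes, on which the MuvB core acts with repressors in resting cells and with B-Myb and FoxM1 in dividing cells. In squamous epithelium their transcripts are found mainly in the dividing basal layer and in tumours, and they are used as markers of proliferation.

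The set moved upward on balance but not as a block. Of the 36 genes, 30 were called, where 63.9% of all tested genes were. In the knockout libraries 22 (61.1%) rose and 8 (22.2%) fell, where 30.1% of all tested genes rose and 33.8% fell. The median log2 fold change was 0.37 over the 36 genes and -0.03 over all tested genes. A rise of at least 1 was seen in 9 genes (25%), against 6.82% of all tested genes called with a rise of that size. No member fell by 1 or more, as 10.2% of all tested genes did. Together the 36 genes summed to 1953 and 2033 FPKM among controls against 2523 and 2572 among knockouts. The number of members that fell was 4 without control library a and 2 without control library b, and the number that rose was 18 in both cases. Over all tested genes calls dropped as well, from 4073 lower to 2911 and 2808, and from 3628 higher to 2466 and 2437.

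**Figure D1:**
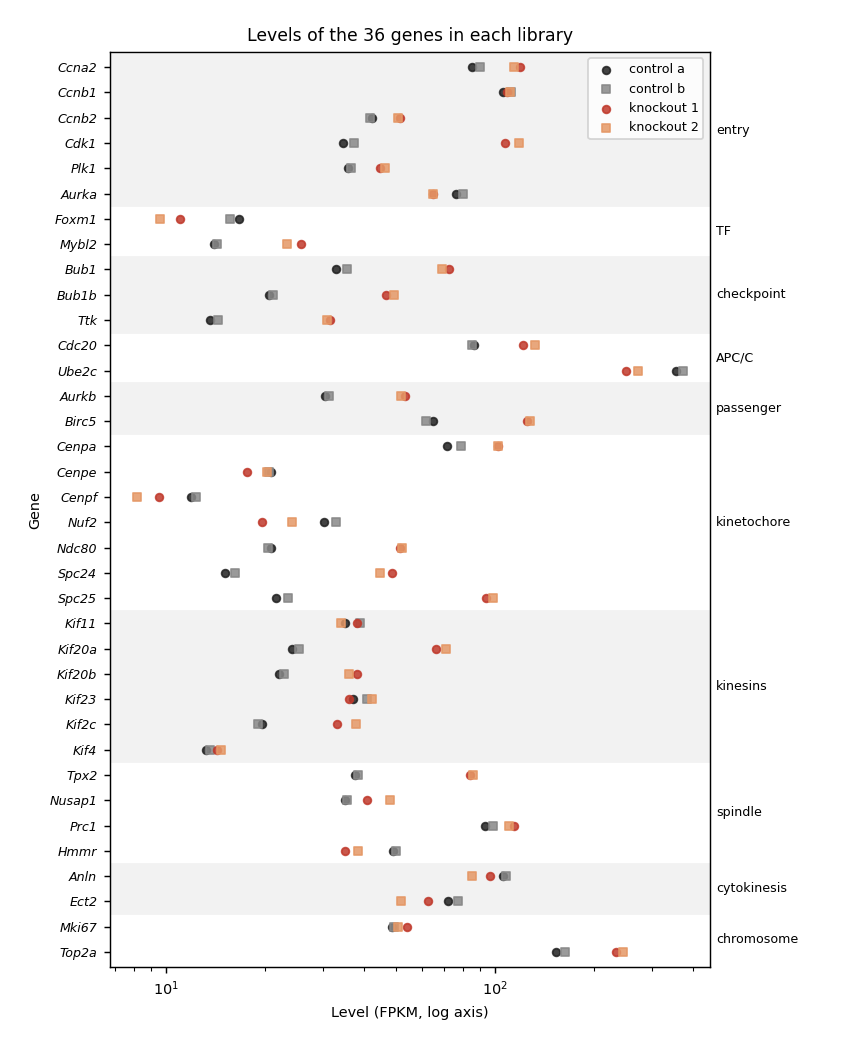
Level of each of the 36 genes (FPKM, log axis) in control libraries a and b (black and grey) and knockout libraries 1 and 2 (red and orange), grouped by role. Levels run from 8.16 to 372 FPKM, and the spread between libraries of a group is small beside the gap between groups for genes such as Spc25, Cdk1 and Kif20a.

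Levels in the 36 genes ran from 8.16 FPKM (Cenpf in knockout library 2) to 372 FPKM (Ube2c in control library b). Replicates lay close together, with a median absolute log2 difference of 0.07 between the control libraries and 0.09 between the knockout libraries. The widest gap between control libraries was 0.15, and the widest between knockout libraries was 0.29, in Nuf2. Groups overlapped for 3 genes. Of the other 33, 24 were higher and 9 lower in both knockout libraries than in either control library, and of all tested genes 40.4% and 43.5% were so placed.

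Promoter sequence was not used in the choice of the set by name. Many genes of mitosis are known to carry CHR and CCAAT elements, so high shares here are no independent result. Windows from 250 bases before to 50 after the transcription start were available from RefSeq (GRCm38.p6) for 30 of the 36 genes. The letters TTTGAA, the usual form of the CHR, were found on either strand in 23 of 30 windows (76.7%), against 18.1% of the 27025 RefSeq promoters and 11.9% of the 10464 promoters of other genes measured here. Both shares are given in that order below. Of the 23 genes, 21 had a match that began within 50 bases of the start. TTTAAA, a variant of the CHR, was in 9 of 30 (30%, against 13.2% and 9.04%), and CCAAT, the box bound by NF-Y, in 22 of 30 (73.3%, against 37.9% and 38.5%). At least 2 CCAAT boxes were in 53.3% of the members' windows against 12.2% and 14.4%. The E2F-like letters TTGGCGC were in 4 of 30 (13.3%, against 2.54% and 4.3%), and TTCCCGC was in 0 of 30 (against 4.66% and 8.29%). The reverse complement of TTGGCGC can share letters with a CCAAT box, as it does in Ccnb1. In the shorter window from 100 bases before to 50 after the start, TTTGAA was in 73.3% of members, against 8.08% and 4.39%. The genes without a window used here are Ccna2, Foxm1, Aurkb, Spc24, Kif20a and Tpx2.

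**Figure D2:**
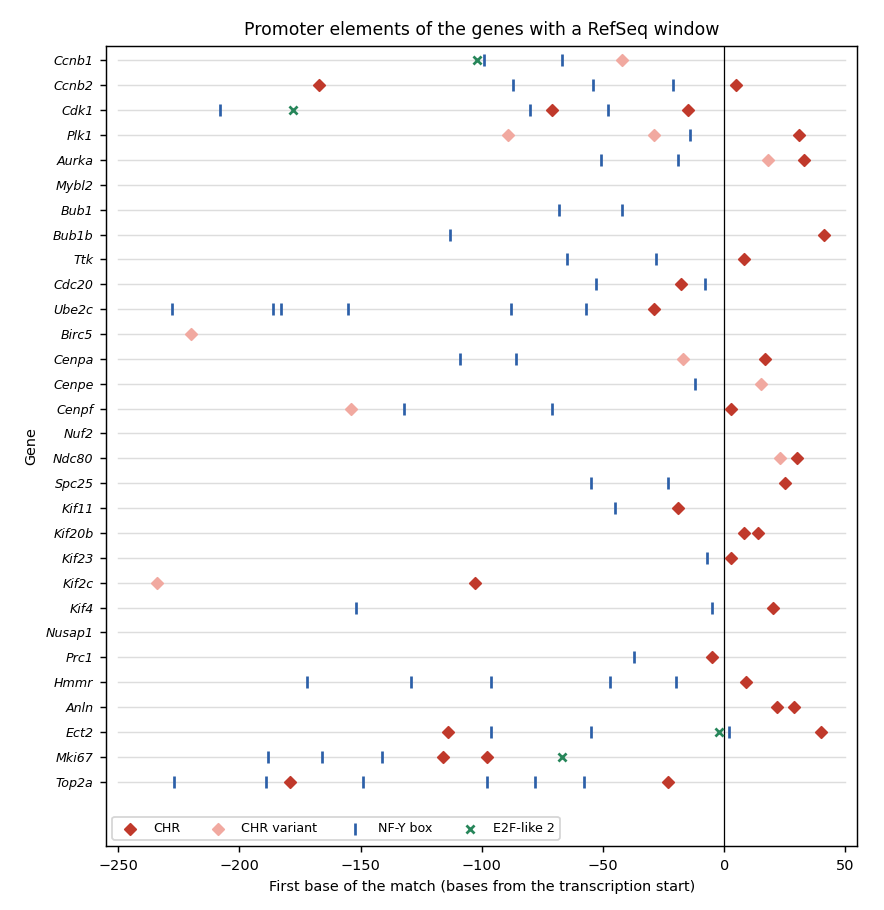
Positions of promoter elements in 30 genes, as the first base of each match in bases from the transcription start (vertical line): CHR (red), CHR variant (pink), NF-Y box (blue bars) and an E2F-like element (green crosses). Most CHR matches lie within 50 bases of the start, with NF-Y boxes upstream of them, and Mybl2, Nuf2 and Nusap1 carry no match.

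The promoters of 3 pairs of partner genes are shown from 100 bases before to 50 after the start, because the partners in each pair moved apart in these tumours: Cdk1 rose and its partner Ccnb1 was not called, Spc25 rose and its partner Nuf2 fell, and Cdc20 rose while Ube2c fell. Capitals mark matches to the 5 motifs, on either strand, that lie wholly inside the printed stretch, and each sequence reads 5′ to 3′ on the strand of its gene.
Cdk1 (chr10:69352863-69353012, minus strand): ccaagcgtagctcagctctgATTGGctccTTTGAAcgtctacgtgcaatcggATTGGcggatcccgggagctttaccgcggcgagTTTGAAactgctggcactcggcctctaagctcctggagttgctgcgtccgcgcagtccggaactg
Ccnb1 (chr13:100786437-100786586, minus strand): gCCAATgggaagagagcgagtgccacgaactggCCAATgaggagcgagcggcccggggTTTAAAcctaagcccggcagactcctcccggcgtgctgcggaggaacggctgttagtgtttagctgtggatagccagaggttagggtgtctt
Spc25 (chr2:69206164-69206313, minus strand): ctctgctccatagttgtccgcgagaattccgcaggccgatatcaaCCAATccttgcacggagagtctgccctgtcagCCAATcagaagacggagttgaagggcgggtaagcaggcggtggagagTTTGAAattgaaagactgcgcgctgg
Nuf2 (chr1:169531415-169531564, minus strand): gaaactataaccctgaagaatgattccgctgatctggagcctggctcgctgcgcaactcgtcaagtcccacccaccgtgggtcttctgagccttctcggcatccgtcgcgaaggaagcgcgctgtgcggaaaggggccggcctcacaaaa
Cdc20 (chr4:118437294-118437443, minus strand): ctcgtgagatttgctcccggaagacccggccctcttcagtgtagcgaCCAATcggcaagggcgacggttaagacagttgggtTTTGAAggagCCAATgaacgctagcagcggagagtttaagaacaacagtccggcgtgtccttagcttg
Ube2c (chr2:164769829-164769978, plus strand): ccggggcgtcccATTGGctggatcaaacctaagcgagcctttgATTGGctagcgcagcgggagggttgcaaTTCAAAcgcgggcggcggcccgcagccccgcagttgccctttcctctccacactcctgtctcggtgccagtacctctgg

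Genes that rose, fell and were not called all carried the elements. TTTGAA was in 13 of the 17 genes with a window that rose, in 6 of the 7 that fell and in 4 of the 6 that were not called. CCAAT was in 11, 5 and 6 of them. Cdc20 and Ube2c both carry TTTGAA close to the start beside CCAAT boxes and moved in opposite directions. Nuf2, Mybl2 and Nusap1 carry none of the 5 motifs in the window.

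Among the genes that drive entry into mitosis, 4 of 6 rose and 1 fell, where 30.1% of all tested genes rose and 33.8% fell. Counts for roles of so few genes, here and below, describe the single genes and are no result about the role. Cdk1, the kinase that starts mitosis, stood at 34.4 and 37.2 FPKM (control) against 107 and 118 (knockout). Both knockout libraries lay well above both controls, a rise of 1.63 (SE 0.08, limma adjusted p = 0.000366), or 3.15 times the control mean. Its partner Ccnb1, which encodes cyclin B1, stood at 106 and 112 FPKM (control) against 109 and 111 (knockout). The groups overlapped, with a log2 difference of 0.01 and a 95% interval from -0.14 to 0.17. The ratio of Cdk1 to Ccnb1 was 0.324 and 0.334 under control and 0.985 and 1.07 under knockout. A ratio within a library does not depend on a factor that scales the whole library, but it can change where scaling differs between genes. The pairs given here and later were picked after their values were seen. Ccna2, which encodes cyclin A2, rose from 85.4 and 89.8 FPKM to 119 and 114 (0.41, SE 0.06, limma adjusted p = 0.00455), and Ccnb2, which encodes cyclin B2, from 42.4 and 41.8 to 51.3 and 50.6 (0.27, SE 0.06, limma adjusted p = 0.0141).

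Plk1, the polo-like kinase of centrosomes and kinetochores, rose from 35.7 and 36.5 FPKM to 44.7 and 46.3 (0.33, SE 0.06, limma adjusted p = 0.00891). Aurka, which encodes the spindle pole kinase Aurora A, fell from 75.9 and 79.8 FPKM to 64.6 and 64.6 (-0.26, SE 0.06, limma adjusted p = 0.0159). These small changes had groups that did not overlap, but the calls on Ccnb2, Plk1 and Aurka were lost without either control library. The limma adjusted p without control library a was 0.108, 0.0887 and 0.082, and without b 0.133, 0.0711 and 0.16. Over all 17 alternatives it ranged from 0.0079 to 0.203 for Ccnb2, from 0.00555 to 0.0887 for Plk1 and from 0.000996 to 0.16 for Aurka.

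The transcription factors that act on mitotic promoters moved in opposite directions. Foxm1, a forkhead factor that binds with the MuvB complex in G2, fell from 16.6 and 15.6 FPKM to 11 and 9.55 (-0.61, SE 0.10, limma adjusted p = 0.00559). Mybl2, which encodes B-Myb, rose from 14 and 14.3 FPKM to 25.8 and 23.3 (0.75, SE 0.08, limma adjusted p = 0.00165). With the values read as FPKM, the ratio of Mybl2 to Foxm1 was below 1 in each control library (0.842 and 0.917). In knockout it was 2.34 and 2.44.

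The spindle checkpoint genes Bub1, Bub1b and Ttk all rose, by similar amounts. Bub1, a kinase that recruits shugoshin and checkpoint proteins to kinetochores, rose from 32.8 and 35.5 FPKM to 72.3 and 68.8 (1.03, SE 0.07, limma adjusted p = 0.000599). Bub1b, which encodes BubR1 of the mitotic checkpoint complex, rose from 20.5 and 21.2 FPKM to 46.6 and 49.4 (1.16, SE 0.07, limma adjusted p = 0.000462). Ttk, which encodes the checkpoint kinase Mps1, rose from 13.6 and 14.4 FPKM to 31.6 and 30.9 (1.11, SE 0.07, limma adjusted p = 0.000531). Their 95% intervals lay between 0.84 and 1.35.

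The genes that serve the anaphase-promoting complex parted. Cdc20, its activator and the target of the checkpoint, rose from 86.2 and 85.3 FPKM to 122 and 132 (0.56, SE 0.07, limma adjusted p = 0.00194). Ube2c, which encodes its ubiquitin-conjugating enzyme and was the member with the highest level in every library, fell from 356 and 372 FPKM to 250 and 272 (-0.48, SE 0.07, limma adjusted p = 0.00403). The ratio of Cdc20 to Ube2c went from 0.242 and 0.229 to 0.489 and 0.483. Exons of Ube2c share 22.8% of their bases with the antisense gene Tnnc2, which stood at 52.7 and 48.9 FPKM (control) against 45.2 and 56.1 (knockout). The library kit marks strand, but whether the counting used it is not given.

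Both members of the chromosomal passenger complex, which corrects faulty attachments and later directs cleavage, rose. Aurkb, its kinase Aurora B, rose from 30.5 and 31.3 FPKM to 53.1 and 51.8 (0.75, SE 0.06, limma adjusted p = 0.00081). Birc5, which encodes survivin, rose from 64.7 and 61.7 FPKM to 125 and 128 (0.99, SE 0.06, limma adjusted p = 0.000483). Aurora B and Aurora A thus moved in opposite directions, and the ratio of Aurkb to Aurka went from 0.402 and 0.392 to 0.822 and 0.801.

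**Figure D3:**
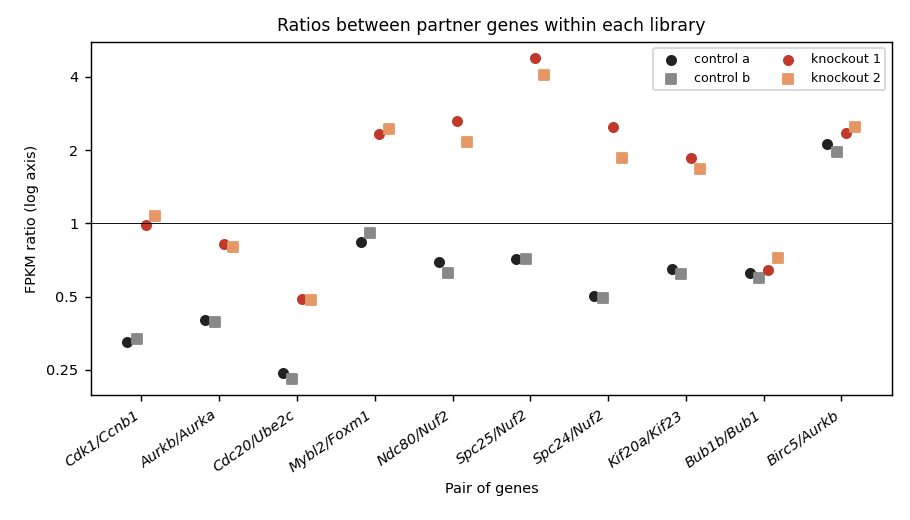
Ratio of FPKM (log axis) between partner genes within each library: control a and b in black and grey, knockout 1 and 2 in red and orange. The pairs were chosen after their values were seen. The ratio of Spc25 to Nuf2 goes from 0.717 and 0.715 to 4.8 and 4.07, while Bub1b to Bub1 stays between 0.597 and 0.719.

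Subunits of 1 kinetochore complex moved apart. The Ndc80 complex, the main coupler of kinetochores to microtubules, is built of 4 proteins: Ndc80 pairs with Nuf2 at the microtubule end, and Spc24 pairs with Spc25 at the kinetochore end. Spc25 showed the largest rise of the 36 genes, from 21.6 and 23.4 FPKM to 93.9 and 98.4 (2.05, SE 0.07, limma adjusted p = 0.00026), 4.27 times the control mean. Spc24 rose from 15.1 and 16.2 FPKM to 48.5 and 44.6 (1.52, SE 0.08, limma adjusted p = 0.000393), and Ndc80 from 20.8 and 20.4 to 51.4 and 52.1 (1.29, SE 0.06, limma adjusted p = 0.000366). Nuf2 went the other way, from 30.1 and 32.8 FPKM to 19.6 and 24.2 (-0.51, SE 0.12, limma adjusted p = 0.0162). With the values read as FPKM, Nuf2 had the highest level of the 4 transcripts in control and the lowest in knockout. The ratio of Ndc80 to Nuf2, the direct partners, was 0.691 and 0.623 in control and 2.63 and 2.16 in knockout. Without control library b the fall of Nuf2 was -0.45 and its call was lost (adjusted p = 0.0801, with a range from 0.00346 to 0.0801 over the 17 alternatives), while the other 3 genes kept theirs under every one.

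The other centromere genes changed less. Cenpa, which encodes the histone H3 variant that marks centromeres, rose from 71.5 and 78.7 FPKM to 102 and 102 (0.44, SE 0.07, limma adjusted p = 0.00491). Cenpf, which encodes a large kinetochore and nuclear matrix protein, fell from 11.9 and 12.3 FPKM to 9.52 and 8.16 (-0.41, SE 0.10, limma adjusted p = 0.0203). The fall of Cenpf was no longer called without control library a (0.109) or b (0.14), within a range from 0.00788 to 0.427 over the alternatives. Cenpf has the longest transcript of the 36 genes, 11130 nt, and its difference turned to 0.08 once the trend with transcript length was removed. Cenpe, which encodes the kinetochore kinesin that carries chromosomes to the spindle equator, stood at 20.8 and 20.6 FPKM (control) against 17.6 and 20.2 (knockout). Its difference of -0.13 had an interval from -0.37 to 0.11 and was not called (limma adjusted p = 0.262), except without knockout library 2 (-0.23, adjusted p = 0.0332, with a range from 0.0332 to 0.847 over the alternatives).

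Mitotic kinesins, the motors that build and move the spindle, rose in 3 of 6 cases and fell in none. Of all tested genes 30.1% rose and 33.8% fell. Kif20a, which brings the passenger complex to the central spindle, rose from 24.1 and 25.3 FPKM to 66.4 and 70.8 (1.44, SE 0.07, limma adjusted p = 0.000361). Exons of Kif20a share 29.3% of their bases with the antisense gene Cdc23, a subunit of the anaphase-promoting complex, which itself went from 13.5 and 15.4 FPKM to 27 and 28.9. Kif2c, which takes microtubules apart at centromeres, rose from 19.5 and 19 FPKM to 33.2 and 37.9 (0.85, SE 0.09, limma adjusted p = 0.00137), and Kif20b, a motor of late cytokinesis, from 22 and 22.8 to 38.1 and 36.1 (0.70, SE 0.07, limma adjusted p = 0.00124). Kif11, which pushes the spindle poles apart, stood at 35 and 38.8 against 38 and 34 FPKM (-0.03, 95% interval from -0.27 to 0.20). Kif23, the motor of centralspindlin, stood at 37.1 and 40.7 against 35.9 and 42.4 FPKM (0.01, interval from -0.26 to 0.28). The groups overlapped for both motors. Kif4, a chromosome-bound motor that works with Prc1, stood at 13.2 and 13.6 against 14.3 and 14.7 FPKM (0.10, interval from -0.10 to 0.31).

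Of the spindle microtubule proteins, 3 of 4 rose, where 30.1% of all tested genes did. Tpx2, which activates Aurora A on the spindle, rose from 37.6 and 38.2 FPKM to 83.8 and 85.9 (1.14, SE 0.06, limma adjusted p = 0.000385), opposite to Aurka itself. Nusap1, which bundles microtubules at chromosomes, went from 34.9 and 35.4 FPKM to 40.8 and 48 (0.33, SE 0.10, limma adjusted p = 0.0331), and Prc1, which crosslinks the central spindle, from 93.4 and 98.4 to 114 and 110 (0.22, SE 0.06, limma adjusted p = 0.0313). Hmmr, a protein of spindle poles that is also known as a hyaluronan receptor, fell from 48.9 and 50.1 FPKM to 34.9 and 38.3 (-0.43, SE 0.07, limma adjusted p = 0.00628). Nusap1 and Prc1 were not called without control library a (adjusted p = 0.133 and 0.246) or b (0.117 and 0.122), and that on Hmmr without b (0.0517). Over the alternatives the adjusted p ranged from 0.00492 to 0.133 for Nusap1, from 0.00926 to 0.246 for Prc1 and from 0.00281 to 0.0517 for Hmmr.

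**Figure D4:**
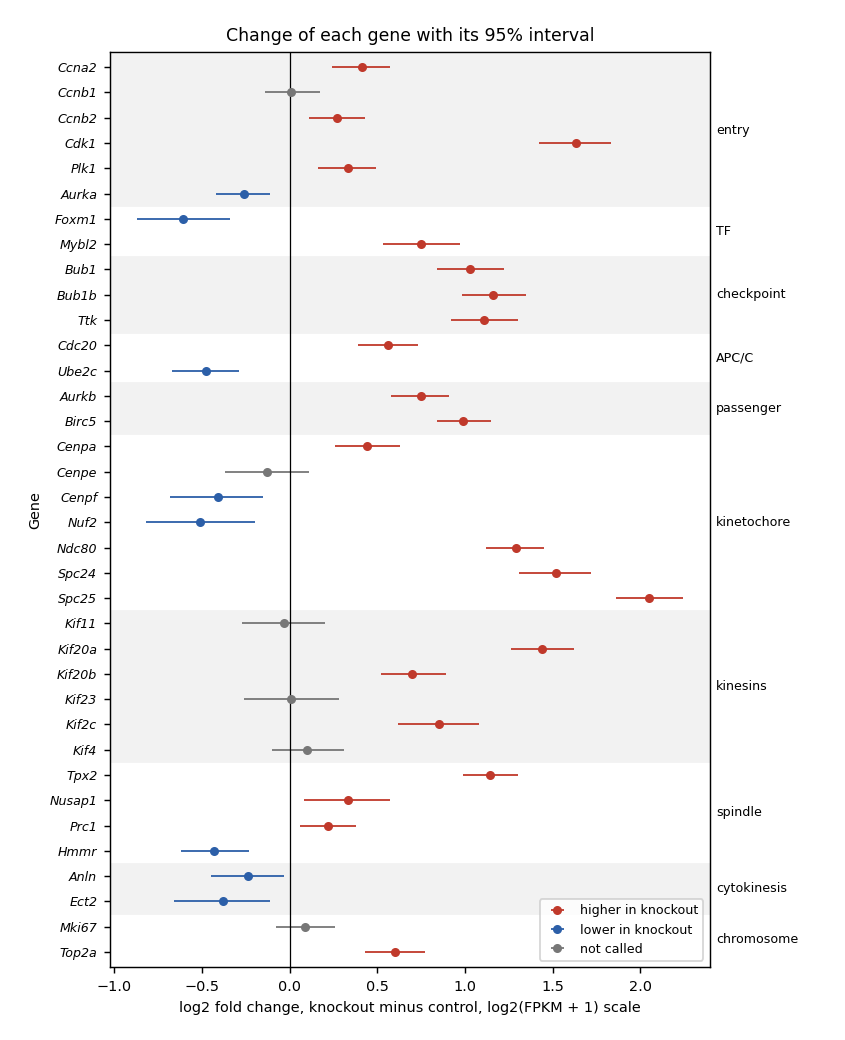
Log2 fold change (knockout minus control, log2(FPKM + 1) scale) of each gene with its 95% interval from limma, grouped by role; red genes rose, blue genes fell and grey genes were not called. Spc25 (2.05) and Cdk1 (1.63) lie farthest to the right and Foxm1 (-0.61) farthest to the left.

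Both genes of the cleavage furrow fell, by small amounts, where 33.8% of all tested genes fell. Ect2, which encodes the exchange factor that activates RhoA at the cell equator, went from 72.2 and 77.1 FPKM to 62.6 and 51.9 (-0.38, SE 0.11, limma adjusted p = 0.0281). Anln, which encodes anillin, the scaffold of the contractile ring, went from 106 and 108 FPKM to 96.6 and 85.2 (-0.24, SE 0.08, limma adjusted p = 0.0492). Neither call held without control library a (adjusted p = 0.0633 and 0.169) or b (0.121 and 0.204), and that on Anln was also lost without knockout library 2 (0.0516). Ranges over the alternatives were 0.00626 to 0.121 for Ect2 and 0.00779 to 0.791 for Anln, which was called under 7 of 17.

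Of the chromosome proteins, Top2a, the topoisomerase that untangles sister chromatids, rose from 153 and 163 FPKM to 234 and 246 (0.60, SE 0.07, limma adjusted p = 0.00161). Mki67, which encodes the chromosome-coating protein Ki-67 and is the usual marker of dividing cells, stood at 48.8 and 49.3 FPKM (control) against 54.1 and 50.8 (knockout). Its difference of 0.09 had an interval from -0.08 to 0.26 and was not called (adjusted p = 0.263).

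Part of the spread among the 36 genes went with transcript length. Across the 11957 tested genes with a length, the rank correlation between fold change and the longest annotated transcript was -0.26, and across the 36 genes it was -0.28. These are correlations across genes, which are not independent replicates. Among the 12 members under 3000 nt, 9 rose and 2 fell, with a median of 0.48; of all genes of that length 37.7% rose and 23.4% fell, with a median of 0.14. Of the 15 members from 3000 nt to under 4500 nt, 11 rose and 3 fell, with a median of 0.75, against 29.8%, 34.7% and -0.04 for all genes. Of the 9 members of 4500 nt and over, 2 rose and 3 fell, with a median of -0.03, against 18.1%, 49.9% and -0.31. The share of rises in this longest class was near that of all genes. At each length the members' median was thus above that of all genes.

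**Figure D5:**
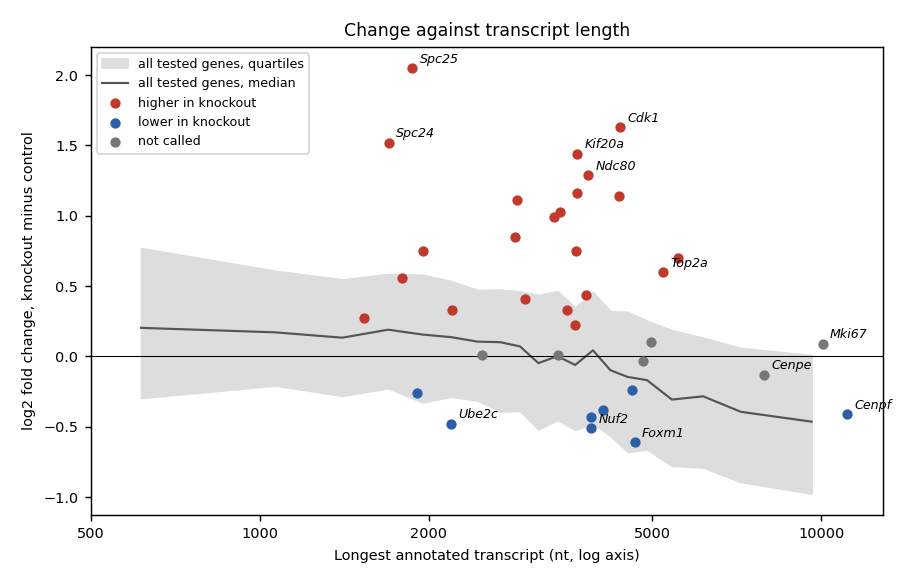
Log2 fold change (knockout minus control) against the longest annotated transcript (nt, log axis) for the 36 genes, with the median and quartiles of all tested genes in 20 bins of length (grey). The grey median falls with length, from above 0 for short transcripts to below 0 for long ones; Mki67, Cenpe and Cenpf are the longest members.

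After the trend with transcript length was removed from each library, 23 members rose and 6 fell, and the median was 0.40. Calls over all tested genes shifted the same way, from 3628 to 3876 higher and from 4073 to 3777 lower. The long genes moved most. Mki67 then rose by 0.57 (adjusted p = 0.0013), Kif4 rose by 0.33 (0.018), Cenpf stood at 0.08 (0.4) and Anln at -0.07 (0.372). Cenpe stood at 0.28 (0.0976), where it had been at -0.13. Ccnb2 stood at 0.12 (0.13). Where the genomic span was used in place of the transcript, Mki67 stood at 0.06 (0.357) and Cenpf at -0.34 (0.0211), so the values of these genes depend on the measure of length. With the longest protein-coding transcript Kif11 rose by 0.22 (0.0407). Over all 17 alternatives the adjusted p ranged from 0.000309 to 0.597 for Mki67, from 0.00794 to 0.695 for Kif4 and from 0.0407 to 0.985 for Kif11. The cause of the trend was not tested.

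Exons of 10 of the 36 genes share bases with another annotated gene, 8 of them with a gene on the opposite strand. Besides Kif20a and Ube2c these were Kif4 with Pdzd11 (15.1% of its exon bases), Ccna2 with Exosc9 (12.5%), Prc1 with Rccd1 (11.1%), Plk1 with Gm44985 (7.09%), Nusap1 with Oip5 (4.24%) and Cdc20 with Elovl1 (2.84%). Some partners had the same call as their member. Exosc9 (0.76), Oip5 and Cdc23 rose, as did Ccna2, Nusap1 and Kif20a, and neither Pdzd11 (0.22) nor Kif4 was called. Others differed: Elovl1 fell (-0.61) where Cdc20 rose, Rccd1 (-0.19) was not called where Prc1 rose, and Tnnc2 was not called where Ube2c fell. Without strand in the counting, reads of such pairs could not be told apart.

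Other genes of the same machinery, in 7 further lists written with earlier results of these data known, were tested in the same fit. Where 30.1% of all tested genes rose and 33.8% fell, with a median of -0.03, 78 of these 144 rose and 21 fell, with a median of 0.36. Without control library a or b, fewer of them rose and fewer fell, as was so over all tested genes. Of 37 other kinetochore and checkpoint genes 24 rose and 5 fell (median 0.56), of 30 other spindle and centrosome genes 18 and 3 (median 0.36), and of 24 cohesin and condensin genes 12 and 3 (median 0.34). Subunits and regulators of the anaphase-promoting complex rose in 10 of 17 cases and fell in none (median 0.40). The lists with medians near 0 were other cytokinesis genes (5 of 11 rose, 3 fell, median -0.04), genes of the G2/M switch (3 of 12 rose, 4 fell, median 0.10) and the DREAM and MuvB complex (6 of 13 rose, 3 fell, median 0.12). The shares of rises and falls in the G2/M switch list were near those of all tested genes.

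Among the kinetochore genes with the smallest p, Ska1, of the complex that works beside Ndc80 on microtubules, rose from 4.07 and 4.19 FPKM to 18.9 and 19.9 (1.99). Cenpk, of the inner kinetochore, rose by 1.80, and Casc5, the older symbol of the kinetochore scaffold Knl1, by 1.30. In the spindle list the augmin subunits Haus4 and Haus8 rose by 1.75 and 1.40 and the kinesin Kif15 by 1.35. Of the genes that hold or condense chromatids, Cdca5, which encodes the cohesion factor sororin, rose by 1.58, Pttg1, which encodes securin, by 1.09 and the condensin subunit Ncapg by 1.08. The anaphase-promoting complex subunits Anapc5, Anapc16 and Cdc23 rose by 1.07, 0.88 and 0.91.

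In the G2/M switch list, Cdc25b, the phosphatase that activates Cdk1, fell from 77 and 81.7 FPKM to 48.6 and 46.3 (-0.73), and Cks2, a Cdk1 binding subunit, fell from 177 and 180 to 125 and 134 (-0.46). Mastl, a kinase that protects Cdk1 substrates from dephosphorylation, rose by 0.59. Among the cytokinesis genes, Racgap1, the partner of Kif23 in centralspindlin, rose by 0.59 and Shcbp1, which binds centralspindlin, by 1.19, while the RhoA-dependent kinase gene Rock2 fell by 1.31. In the DREAM and MuvB list the pocket protein gene Rbl1, the repressor gene E2f5 and the histone-binding subunit gene Rbbp4 rose by 0.70, 0.67 and 0.40. The 3 genes of that list that fell were E2f4 (-0.63), Lin54 (-0.47) and Dyrk1a (-0.68).

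Genes that act in S phase are given beside them. Where 30.1% of all tested genes rose and 33.8% fell, 33 of 43 genes of the DNA replication machinery rose and 1 fell, with a median of 0.78. Their summed level was 1223 and 1233 against 2392 and 2308 FPKM. The helicase gene Mcm7 rose by 1.68, its cofactor gene Cdc45 by 1.91 and the primase gene Prim1 by 2.36. The summed level of the mitosis genes was 0.32% and 0.324% of the column total in control and 0.426% and 0.427% in knockout. The difference between the 2 lists was not tested.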

How the data were processed

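The members and the gene lists were chosen with earlier results of these data known. Per the submitters' processing notes, the authors used TopHat and Cufflinks with the mouse build mm9. The sources used here give neither tool versions nor the annotation nor the strand setting. As deposited, the authors' values of 14159 genes were read as FPKM, although the sheet is named for CPM: the columns sum to between 592281 and 626719. Read depth is unknown. The test planned was the same for either unit.

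The 12046 genes that reached 1 FPKM in 2 or more libraries were tested. limma 3.58.1 (R 4.3.3, eBayes with a trend) was run on log2(FPKM + 1), knockout against control, two-sided, with Benjamini-Hochberg adjustment over all tested genes and calls under 0.05. There were 2 residual degrees of freedom, and the prior added 2.93. The test was checked on simulated data. Their noise was drawn from the variance model of the same test, independently between libraries, so the check cannot show whether that model holds here. Exact permutation of 2 libraries against 2 cannot give a p below 0.333, so no such test is printed.

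Named were all 36 members, Kdm4a and, in each other mitosis or replication list, the 3 genes with the smallest p; cell type marker lists are given by counts and sums. Outside this rule, antisense partners are named by exon overlap, and the DREAM and MuvB genes that fell are named by their calls. Markers at 0 and the subunits under other observations were picked with their values in view. Transcript lengths, spans and exons came from GENCODE M21 on GRCm38, with a length for 99.1% of the genes, and are not the models used on mm9. Promoter windows came from RefSeq on GRCm38.p6, the first window listed for each gene. Alternatives changed the pseudocount, filter, scaling, moderation and length trend, or left out each library in turn. Trends with length were removed from each library by loess with a span of 0.3.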

Additional observations from a re-analysis of the deposited data

How the results depend on the processing

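No paired analysis was possible because both control columns are headed with the same replicate number, so neither can be matched to a knockout library. Of the 36 genes, 20 were called in the same direction under each of the 17 alternatives, and 2, Ccnb1 and Kif23, were called under none. Over 612 combinations of gene and alternative, 33 calls were lost, 7 were gained and 0 were made in the opposite direction. Leaving out a library accounted for 19 losses; with 1 library in a group, that library is assumed to vary like the other group. Where either fit gave a call, the sign of the fold change turned only for Cenpf and Kif11. Cenpf lost its call after removal of the transcript length trend (0.08) or that of the longest protein-coding transcript (0.08). Kif11 gained a call under the latter (0.22). The sign also turned where neither fit gave a call, in Ccnb1, Kif23, Cenpe and Kif11. With the transcript length trend removed, Cenpe stood at 0.28 and Ccnb1 at -0.07. Without 1 library, 18 to 22 members rose and 2 to 8 fell, and 12 to 28 of the 144 other mitosis genes fell. The members' median log2 fold change was 0.31 with quantile normalization. The members' rank correlation of fold change with length was -0.24 with quantile normalization, -0.06 with the transcript length trend removed, -0.05 with that of the longest protein-coding transcript and -0.20 with that of genomic span. The alternatives with protein-coding transcripts and genomic span were chosen after seeing the data. Apart from the length trends, which remove the quantity correlated, the cause of these shifts was not tested. With depth unknown, no detection limit can be given.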

Other observations

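Within 9 protein complexes, picked after their values were seen, subunits did not always move together. Called subunits lay in both directions in 4 of them. Of all tested genes 30.1% rose and 33.8% fell, so any few genes can hold calls in both directions. In the Mis12 complex, Nsl1 and Pmf1 rose by 0.48 and 0.86, Mis12 fell by 0.93 and Dsn1 stood at 0.20. In the Rod-Zw10-Zwilch complex of the kinetochore corona, Kntc1 and Zw10 rose by 0.81 and 0.62 and Zwilch fell by 0.91. In cohesin, Smc1a and Smc3 rose by 0.55 and 0.99, Rad21 and Stag1 fell by 0.34 and 0.35, and Stag2 stood at -0.23. The Ndc80 complex is the other. By contrast, 7 of 8 subunits of augmin, which nucleates microtubules from the sides of others in the spindle, rose and none fell, as did all 4 subunits of the chromosomal passenger complex, with Incenp at 0.52 and Cdca8 at 0.80. Of 8 condensin subunits 5 rose and none fell, while the core pair Smc2 and Smc4 stood at 0.10 and -0.11. These are single calls of the same test across all genes, with no test of any complex as a whole.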
